A study of Homo sapiens with 9 samples.

Results

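The genes described here are 28 named genes of cholesterol and fatty acid synthesis: the enzymes of the mevalonate and sterol steps, the SREBP transcription factors with the proteins that hold or escort them, a sterol carrier, and 4 fatty acid enzymes. They were taken by gene symbol from the array annotation, using the probe sets that list a single symbol. By this rule 26 of the 28 genes were measured, on 27 probe sets, out of 18417 genes in all. FDFT1 is not analysed here, and HSD17B7 was listed only on a probe set that also lists HSD17B7P2, so no value is given for it.

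The arrays came from H9-TCF7L1, a derivative of the human embryonic stem cell line H9 that carries a doxycycline-inducible TCF7L1 transgene in every group. TCF7L1 is a TCF/LEF transcription factor known as a repressor of Wnt target genes. One group had 48 h of PS (primitive streak) differentiation medium and 48 h of doxycycline (Dox) at 1 ug/ml, the next had 48 h of PS medium alone, and the untreated group was kept in mTeSR1, a medium for undifferentiated stem cells. Each of these 3 groups had 3 arrays. The study set out to find candidate TCF7L1 target genes by raising TCF7L1. No array had Dox in mTeSR1 or Dox without the transgene, so an effect of Dox itself and of TCF7L1 cannot be told apart, and the labels do not say how the hours of Dox and of medium overlapped. Whether the 3 replicates of a group were grown as separate cultures is not stated, and the p-values therefore reflect array-to-array spread that may be technical.

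As background, cholesterol is built from acetyl-CoA through mevalonate, farnesyl diphosphate, squalene and lanosterol, and fatty acids from malonyl-CoA. Both routes are switched on by the SREBP factors, which SCAP carries from the endoplasmic reticulum to the Golgi for cleavage when sterols are scarce and which the INSIG proteins hold back when sterols are plentiful. INSIG1 and SREBF2 are themselves SREBP targets, so in many cells the genes of the route rise and fall together.

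Values are intensities per probe set, quantile-normalised over the 9 arrays, and differences are on the scale of log2(intensity + 16), with the standard error (SE) of the fit. A gene is called higher or lower where its adjusted p from limma, corrected by Benjamini-Hochberg over 18417 genes, is below 0.05. Probes differ in brightness, so the level of one gene is not set against that of another, and in the sums over marker lists below the brighter probe sets weigh most.

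The TCF7L1 signal, in which transgene and endogenous gene cannot be told apart, was not the same on every Dox array. TCF7L1 stood at 13330.0, 12472 and 2719.6 in PS medium plus Dox (replicates 1, 2 and 3), against 1274, 1517 and 1586 in PS medium alone and 3702, 3900.2 and 3604 in untreated cells. Replicate 3 of the Dox group was above all PS medium arrays but below all untreated arrays, so results that rest on the Dox group are also given without it. In the fit TCF7L1 was called higher with Dox against PS medium, at 2.39 (SE 0.47, limma adjusted p = 0.00464). Against untreated cells it was not called, at 1.04 (SE 0.47, limma adjusted p = 0.124) with Dox. Nor was it called in PS medium against untreated, at -1.35 (SE 0.47, limma adjusted p = 0.0502). Arrays of a group correlated at 0.989 or more over all genes. The summed intensity of 8 primitive streak markers ranged from 15511 to 24719 with Dox, from 53554 to 67796 in PS medium and from 2068 to 2239 in untreated cells. The sum of 11 pluripotency markers was 31200 to 32063 with Dox, 26341 to 30475 in PS medium and 42656 to 45357 in untreated cells. With Dox against PS medium SOX2, PRDM14 and DPPA4 were called higher, L1TD1 was called lower and the other pluripotency markers were not called. That of 6 amnion markers was 24866 to 30293 with Dox, 9943 to 12694 in PS medium and 1125 to 1227 in untreated cells. Of the amnion markers ISL1, GATA3, TFAP2A and HEY1 were called higher in PS medium against untreated, IGFBP3 was called lower and VTCN1 was not called. With Dox against PS medium all 6 were called higher. The sums of 8 hepatocyte and yolk sac markers lay between 830.1 and 899 on all 9 arrays, and 5 of them had a mean under 100 in each group. Of these markers APOB was called lower and ALB higher in PS medium against untreated. With Dox 0 were called against PS medium, and 0 were higher and 1 lower against untreated. The sums of 8 adipocyte markers were 904 to 1027 with Dox, 969 to 1078 in PS medium and 1215 to 1320.0 in untreated cells. Only LPL of these 8 was called in PS medium against untreated, lower at -1.40 (SE 0.15). In each group 5 or 6 of the adipocyte markers had a mean under 100. The 8 fibroblast markers summed to 3285 to 4131 with Dox, 3261 to 3539 in PS medium and 6246 to 6432 in untreated cells. Within that list THY1 and COL1A1 were called lower and COL1A2 higher in PS medium against untreated. With Dox against both other groups POSTN was called higher and THY1 lower. With Dox against untreated COL1A2 was also called higher and COL1A1 lower. DCN, LUM, PDGFRB and COL3A1 were called in no comparison. The part of these marker differences in the results below was not tested.

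Most of the route was lower in PS medium. Of the 26 measured genes, 22 were lower than in untreated cells and none was higher, where limma at an adjusted p below 0.05 called 15.7% of all genes lower and 14.2% higher, 29.8% together. At an unadjusted p below 0.05, 22 were lower and 1 was higher, against 20.3% and 18.6% of all genes. The median difference of the 26 genes was -0.48 on the log2 scale, against -0.0055 over all genes tested, and 25 of the 26 estimates were negative, against 51.1% of all genes. In 22 genes all 3 PS medium arrays lay below all 3 untreated arrays, which held for 22.5% of all genes. These are bulk samples, in which fewer cells of a type and less RNA per cell cannot be told apart. The count was 14 without untreated replicate 1, without untreated replicate 2 or without PS medium replicate 3. In these settings 2300, 2259 and 2677 of all 18417 genes were called lower. The 14 genes called in every alternative setting were HMGCS1, SQLE, CYP51A1, TM7SF2, MSMO1, EBP, DHCR7, INSIG1, SCAP, SREBF2, STARD4, ACACA, ELOVL6 and SCD.

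**Figure D1:**
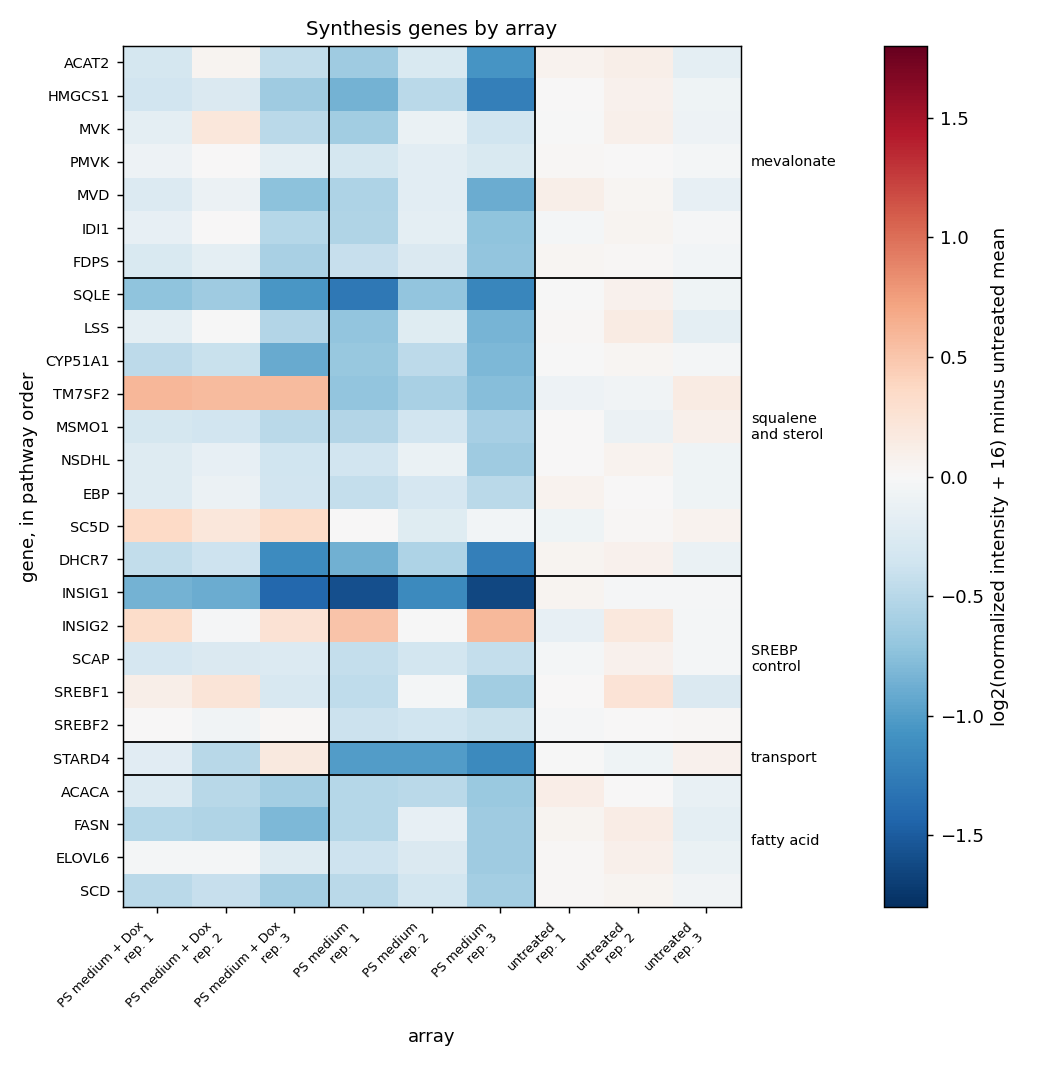
Log2(normalised intensity + 16) of the 26 measured genes minus the mean of the untreated arrays, one row per gene in pathway order and one column per array, with PS medium plus Dox on the left, PS medium in the middle and untreated on the right (blue, below the untreated mean; red, above it). The medians over the 26 genes are -0.24, -0.13 and -0.48 on the Dox arrays and -0.52, -0.29 and -0.66 on the PS medium arrays (replicates 1, 2 and 3), so that Dox replicate 3 lies below PS medium replicate 2, and TM7SF2 and SC5D are red on all 3 Dox arrays.

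With Dox in PS medium, 4 genes were higher than in PS medium alone and none was lower: TM7SF2, STARD4, SC5D and SREBF2. These are 15.4% of the 26 genes, where 8.91% of all genes were called higher and 8.44% lower, 17.3% together, in this comparison. The share called in either direction is close to that of all genes and shows nothing about the list. At an unadjusted p below 0.05, 9 genes were higher and 0 lower, against 14.7% and 13.6% of all genes. The estimates were positive for 23 of 26 genes, against 50.6% of all genes, with a median of 0.23 against 0.002. In 7 genes all 3 Dox arrays lay above all 3 PS medium arrays, which held for 15.9% of all genes. Same-numbered arrays of these groups deviated together over all genes. Over the 26 genes alone the correlation of their deviations was 0.103, 0.799 and 0.591 for replicates 1, 2 and 3. With the replicate number as a block 11 genes were higher and 0 lower, where 12.7% of all genes were called higher. The 7 added genes were ACAT2, HMGCS1, LSS, EBP, INSIG1, SREBF1 and ELOVL6. The block was shared by all 3 groups, so blocked values also rest on pairing PS medium with untreated arrays, which is not shown. Without Dox replicate 3, on which TCF7L1 was low, 7 genes were higher, where 1548 of all 18417 genes were called higher. The added ones were HMGCS1, INSIG1 and ELOVL6. Without PS medium replicate 2 the count was 10, where 1473 of all 18417 genes were called higher. There the added ones were ACAT2, HMGCS1, SQLE, LSS, INSIG1 and ELOVL6. That array was the highest of its group in 24 of the 26 genes, so leaving it out lowers their PS medium mean. The larger count is therefore not read as support. Without PS medium replicate 3, the lowest array in 21 genes, the count was 4, where 1660 of all 18417 genes were called higher. The 4 calls held in every one of the 19 alternative settings.

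Against untreated cells, PS medium plus Dox had 2 genes higher, TM7SF2 and SC5D, and 9 lower, where 15.3% of all genes were called higher and 14.9% lower, 30.3% together. The 9 were SQLE, CYP51A1, MSMO1, DHCR7, INSIG1, SCAP, ACACA, FASN and SCD. The median over the 26 genes was -0.24. With the replicate number as a block, 2 were higher and 15 lower, where 19.4% of all genes were called higher and 18.9% lower, and the added genes were HMGCS1, MVD, FDPS, LSS, NSDHL and EBP. Without Dox replicate 3 there were again 2 higher and 9 lower, where 2521 and 2454 of all 18417 genes were. DHCR7 was then no longer called, and STARD4 was called lower (log2 difference -0.35, limma adjusted p = 0.0281). The other 8 lower genes were called in both cases, with log2 differences from -0.87 to -0.28 without that array. The comparisons share arrays, PS medium in the case of Dox against PS medium and PS medium against untreated, so their values are set side by side and not correlated.

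**Figure D2:**
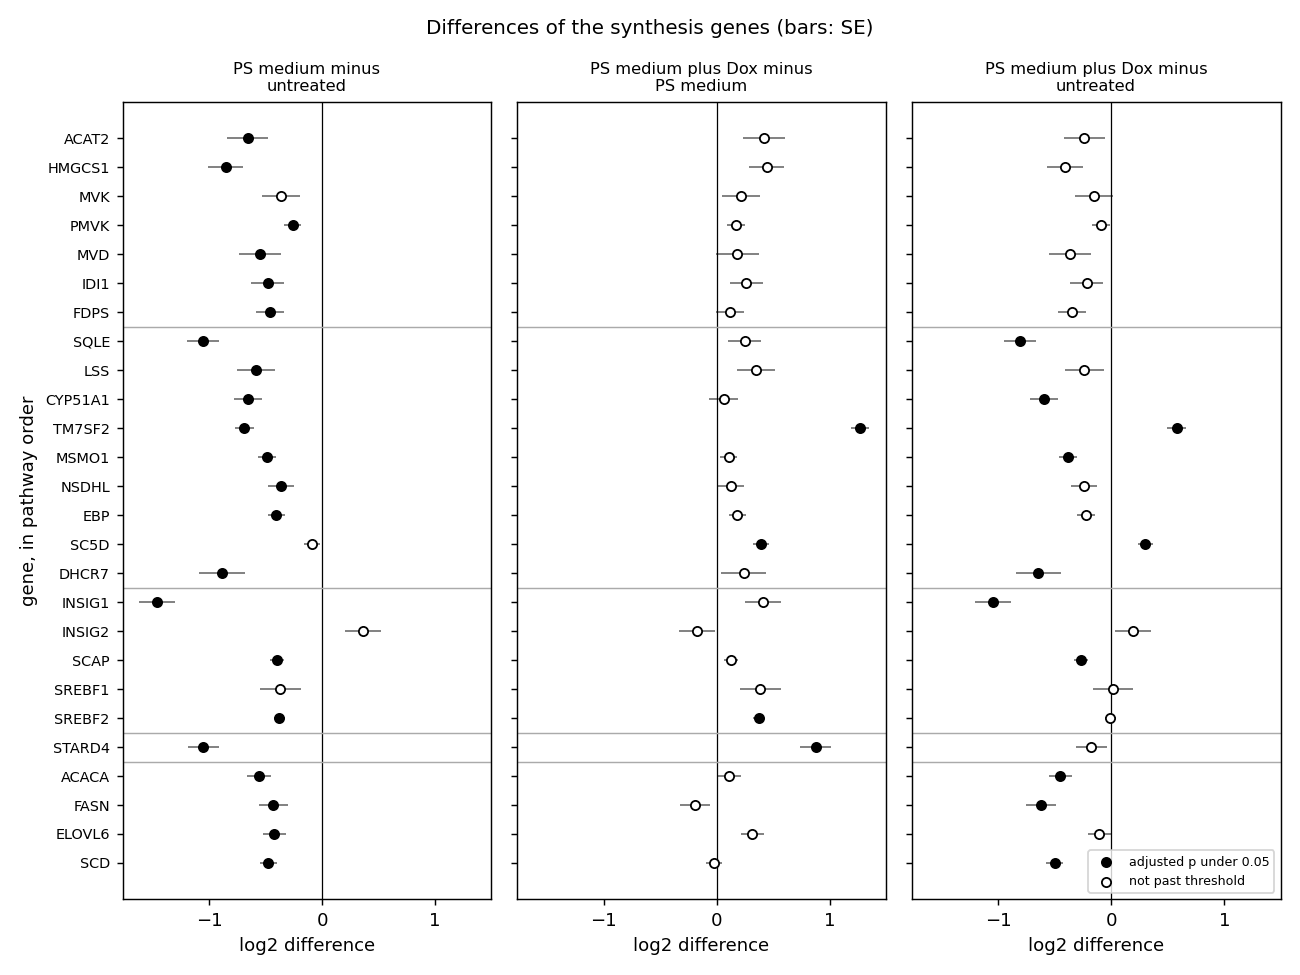
Log2 difference (points) and its SE (bars) for each of the 26 genes in pathway order, in PS medium minus untreated, PS medium plus Dox minus PS medium, and PS medium plus Dox minus untreated. Filled points have a limma adjusted p below 0.05: 22 on the left, all below 0, 4 in the middle, all above 0, and 11 on the right, of which 9 are below 0.

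The promoters printed are those of the 4 genes called higher with Dox than in PS medium and of INSIG1, the gene with the largest fall in PS medium. The sequences are RefSeq windows on GRCh38.p14, given as the 250 bases before the gene's start, 5′ to 3′ on the gene's strand. Capitals mark the classical sterol response element (TCACNCCAC) and the CCAAT box, on either strand.
SREBF2 (chr22:41832855-41833104, plus strand): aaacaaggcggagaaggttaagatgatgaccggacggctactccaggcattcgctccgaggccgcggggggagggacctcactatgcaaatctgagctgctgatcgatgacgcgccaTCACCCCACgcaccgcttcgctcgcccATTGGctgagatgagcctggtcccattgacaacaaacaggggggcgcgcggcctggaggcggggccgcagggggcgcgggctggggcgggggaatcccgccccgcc
STARD4 (chr5:111512536-111512785, minus strand): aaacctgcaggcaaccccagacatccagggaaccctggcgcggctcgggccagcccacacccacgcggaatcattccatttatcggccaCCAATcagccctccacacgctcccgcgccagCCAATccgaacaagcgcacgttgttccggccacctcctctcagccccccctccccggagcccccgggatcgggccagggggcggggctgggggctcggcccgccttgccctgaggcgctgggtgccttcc
TM7SF2 (chr11:65111622-65111871, plus strand): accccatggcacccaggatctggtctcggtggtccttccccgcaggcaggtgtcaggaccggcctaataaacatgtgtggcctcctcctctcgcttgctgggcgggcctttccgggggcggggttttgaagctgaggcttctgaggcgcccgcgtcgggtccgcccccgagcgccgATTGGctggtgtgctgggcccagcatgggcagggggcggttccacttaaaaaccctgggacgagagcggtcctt
SC5D, the upstream of its 2 windows (chr11:121292521-121292770, plus strand): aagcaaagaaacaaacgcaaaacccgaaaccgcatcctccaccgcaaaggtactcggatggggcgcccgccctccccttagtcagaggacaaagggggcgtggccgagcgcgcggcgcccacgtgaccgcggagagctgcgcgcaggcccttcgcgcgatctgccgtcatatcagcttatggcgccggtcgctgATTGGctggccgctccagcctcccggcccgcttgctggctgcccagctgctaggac
INSIG1 (chr7:155297628-155297877, plus strand): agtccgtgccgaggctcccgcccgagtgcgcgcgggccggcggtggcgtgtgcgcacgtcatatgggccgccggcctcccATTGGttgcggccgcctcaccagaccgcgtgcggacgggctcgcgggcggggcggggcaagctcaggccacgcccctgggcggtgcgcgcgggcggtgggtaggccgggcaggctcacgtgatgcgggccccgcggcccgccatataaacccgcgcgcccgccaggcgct

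Windows from 250 bases before to 50 bases after the start were held for 24 of the 28 genes, 32 windows in all, out of 35116 windows. The sterol element as spelled was in 1 of the 32, that of SREBF2, where it begins 133 bases before the start and overlaps no other searched motif, and in 1.13% of all windows. The CCAAT box was in 21 of the 32 windows (65.6%), of 18 genes, and in 34.6% of all windows. The GC box GGGCGG was in 29 (90.6%) against 45% of all windows, and the E-box CACGTG in 5 (15.6%) against 7.26%. The TCF/LEF motif CTTTGAT was in 0 of 32 and in 2.62% of all windows. SREBF2, STARD4, TM7SF2, SC5D and INSIG1 each had a CCAAT box, and STARD4 had 2 of them. Windows of a gene can overlap, a match is a description and not a site, and other spellings of these elements were not searched.

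Every one of the 7 measured genes of the mevalonate steps was lower in PS medium by its estimate. Of these 6 were called, where 15.7% of all genes were called lower. HMGCS1, the HMG-CoA synthase that condenses acetoacetyl-CoA with acetyl-CoA, stood at 2977, 3146 and 2422 in PS medium plus Dox, against 2090.5, 2678 and 1604 in PS medium and 3773, 3957 and 3579.6 in untreated cells. The PS medium arrays all lay below the untreated arrays, and the Dox arrays overlapped the PS medium arrays. Its log2 difference was -0.85 (SE 0.16) in PS medium against untreated (limma adjusted p = 0.00188) and 0.44 (SE 0.16) with Dox against PS medium (limma adjusted p = 0.0814, or 0.0064 with the replicate block).

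ACAT2, the cytosolic thiolase that makes acetoacetyl-CoA, had 1443, 1866 and 1333 with Dox, 1158, 1494 and 861 in PS medium and 1895, 1951 and 1602 in untreated cells. PS medium replicate 2 was within the range of the Dox arrays, while replicate 3 was the lowest of the 9. The difference in PS medium against untreated was -0.66 (SE 0.18), with a limma adjusted p of 0.019.

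Of the enzymes that turn mevalonate into isopentenyl diphosphate, PMVK and MVD were called lower in PS medium. PMVK, phosphomevalonate kinase, had 254, 274 and 241 with Dox, 217, 238 and 223 in PS medium and 279, 274 and 268 in untreated cells. It fell by 0.26 on the log2 scale in PS medium, the smallest of the 22 called differences. MVD, mevalonate diphosphate decarboxylase, had 552, 609.5 and 388 with Dox, 442, 573 and 347 in PS medium and 709, 678 and 593 in untreated cells, a difference of -0.55 (SE 0.19) in PS medium against untreated with an adjusted p of 0.0491 (limma), just under the threshold and above it in 10 of the 19 alternative settings. MVK, mevalonate kinase, had 345, 454 and 276 with Dox, 248, 358 and 302 in PS medium and 391, 419 and 366 in untreated cells, and was not called, at -0.37 (SE 0.17) in the same comparison (limma adjusted p = 0.133).

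IDI1, which interconverts the isoprenoid building blocks, and FDPS, which joins them into farnesyl diphosphate, were lower in PS medium by similar amounts. IDI1 stood at 1619, 1809.8 and 1258 with Dox, 1230.0, 1593 and 1081 in PS medium and 1766, 1862 and 1778 in untreated cells. FDPS stood at 1190.2, 1283 and 962 with Dox, 1078, 1213 and 881 in PS medium and 1482, 1469 and 1396 in untreated cells. Their differences in PS medium were -0.48 (SE 0.15) for IDI1 and -0.46 (SE 0.12) for FDPS. Further probe sets list FDPS together with FDPSP2 and were not used, and signal from that near-identical copy on the FDPS probe set used here cannot be told apart. None of the 7 mevalonate genes was called with Dox against PS medium, where 17.3% of all genes were, or with Dox against untreated cells, where 30.3% were. At an unadjusted p below 0.05 in limma, 2 were higher and 0 lower against PS medium, where 14.7% and 13.6% of all genes were. Against untreated cells 0 were higher and 2 lower at that threshold, where 20.2% and 19.5% of all genes were. With the replicate block ACAT2 and HMGCS1 were higher against PS medium, and HMGCS1, MVD and FDPS were lower against untreated cells.

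Where 15.7% of all genes were called lower in PS medium, 8 of the 9 measured genes of the squalene and sterol steps were. SQLE, the squalene epoxidase and a rate-controlling enzyme of the route, had the largest difference of these. It stood at 1898, 2026 and 1513 with Dox, 1286, 1928 and 1394 in PS medium and 3137, 3343 and 3002 in untreated cells, so that all 6 arrays in PS medium, with or without Dox, lay below the untreated arrays. The log2 difference was -1.05 (SE 0.14) in PS medium against untreated, 2.08-fold lower (limma adjusted p = 0.000274), and -0.81 (SE 0.14) with Dox against untreated (limma adjusted p = 0.00166). With Dox against PS medium it was 0.25 (SE 0.14), with a 95% interval from -0.072 to 0.57, and was not called.

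LSS closes the sterol ring to give lanosterol, and CYP51A1 removes the first of the methyl groups. LSS had 1176, 1318 and 918 with Dox, 807, 1147 and 738 in PS medium and 1346, 1482 and 1179.7 in untreated cells, with PS medium replicate 2 within the range of the Dox arrays. CYP51A1 had 1337, 1407 and 991 with Dox, 1155, 1344 and 1055 in PS medium and 1859, 1922 and 1821 in untreated cells, where all arrays were above the other 6. In PS medium against untreated, LSS differed by -0.59 (SE 0.17) and CYP51A1 by -0.66 (SE 0.13). A further probe set of CYP51A1 gave -0.66 for that comparison and -0.03 for Dox against PS medium, where the probe set used gave 0.061, so no direction is given for that comparison.

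TM7SF2, a sterol reductase that acts after CYP51A1, had the largest difference with Dox against PS medium of the 26 genes. It stood at 1195, 1178 and 1171 with Dox, 475, 518 and 454 in PS medium and 738, 752 and 873 in untreated cells, and the 3 groups did not overlap. The difference with Dox was 1.27 (SE 0.082) against PS medium, 2.4-fold higher (limma adjusted p = 4.51e-06), and 0.58 (SE 0.082) against untreated cells (limma adjusted p = 0.000365). In PS medium alone it was -0.69 (SE 0.082) against untreated (limma adjusted p = 0.000102). The Dox array with low TCF7L1 had about as much TM7SF2 as the other 2, and without it the difference was 1.27 against PS medium and 0.59 against untreated cells, both called. LBR, which can carry out the same reduction, was chosen for comparison after its values were seen and had 1863, 1731 and 1497 with Dox, 1716, 1965 and 1819.6 in PS medium and 1778, 1791 and 1740.2 in untreated cells. It was called in none of the 3 comparisons, with -0.11 (SE 0.083) for Dox against PS medium and a 95% interval from -0.30 to 0.069.

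MSMO1 and NSDHL, which remove further methyl groups, and EBP, the sterol isomerase, were lower in PS medium. MSMO1 had 4139.5, 4081 and 3691 with Dox, 3590.5, 4085 and 3406 in PS medium and 5207, 4812 and 5530.0 in untreated cells, a difference of -0.49 (SE 0.077) in PS medium against untreated and -0.38 (SE 0.077) with Dox against untreated, both called. NSDHL had 1283, 1353 and 1172 with Dox, 1183, 1383 and 961 in PS medium and 1513, 1576 and 1425 in untreated cells, and EBP had 1378, 1509 and 1276 with Dox, 1202, 1302 and 1154 in PS medium and 1695, 1623 and 1537 in untreated cells. In both genes all PS medium and Dox arrays lay below the untreated arrays. NSDHL differed by -0.37 (SE 0.12) in PS medium against untreated and EBP by -0.40 (SE 0.078), and neither was called with Dox against untreated cells. With the replicate block both were called lower there (limma adjusted p = 0.0226 for NSDHL and 0.0102 for EBP).

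SC5D, the sterol desaturase of a late step, was not called in PS medium and was higher with Dox. It stood at 4439, 3990.1 and 4349 with Dox, 3452, 2958 and 3318 in PS medium and 3264, 3490.4 and 3598 in untreated cells, so all Dox arrays were above the other 6, which overlapped. The difference was 0.39 (SE 0.069) against PS medium (limma adjusted p = 0.00239) and 0.30 (SE 0.069) against untreated cells (limma adjusted p = 0.00672), and in PS medium against untreated it was -0.091 (SE 0.069). Without Dox replicate 3 the differences were 0.38 against PS medium and 0.29 against untreated cells, both called. DHCR7, the reductase of the last step to cholesterol, had 2105, 2222 and 1307 with Dox, 1572, 1944 and 1210.5 in PS medium and 2958, 3042 and 2632 in untreated cells. Replicate 3 was the lowest array of each group. DHCR7 differed by -0.89 (SE 0.20) in PS medium against untreated and by -0.65 (SE 0.20) with Dox against untreated, both called. The call with Dox was lost without Dox replicate 3, where the difference was -0.41 (limma adjusted p = 0.0849). It was also lost without untreated replicate 1, 2 or 3, where the differences were -0.62, -0.60 and -0.71 (limma adjusted p = 0.0952, 0.0942 and 0.053).

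Of the 5 SREBP control genes, 3 were lower in PS medium against untreated, INSIG1, SCAP and SREBF2, and 1 was higher with Dox against PS medium, SREBF2. These are 60% and 20% of the 5, where 29.8% and 17.3% of all genes were called. The second share is close to that of all genes and shows nothing about the list. INSIG1, which holds the SCAP-SREBP complex in the endoplasmic reticulum, had the largest fall of the 26 genes. It stood at 674, 656 and 451 with Dox, 398, 545 and 384 in PS medium and 1266, 1208 and 1210.0 in untreated cells, and no array in PS medium, with or without Dox, reached the untreated arrays. The difference in PS medium was -1.46 (SE 0.16), 2.75-fold lower (limma adjusted p = 5.38e-05), and only 1.1% of all genes tested had a lower estimate. With Dox it was -1.05 (SE 0.16) against untreated cells and 0.41 (SE 0.16) against PS medium, the last not called (limma adjusted p = 0.115) but called with the replicate block (limma adjusted p = 0.0393). Without Dox replicate 3 it was -0.87 against untreated cells and 0.59 against PS medium, both called.

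INSIG2, the other retention protein, had 283, 216 and 269 with Dox, 323, 220.3 and 339 in PS medium and 197, 253 and 216 in untreated cells. The groups overlapped, and the difference of 0.36 (SE 0.16) in PS medium, the only positive estimate among the 26, was not called (limma adjusted p = 0.12). Without PS medium replicate 2 it was called higher, at 0.55 (limma adjusted p = 0.0122). It was called in no other of the 19 settings, and ran from 0.26 to 0.55 with a limma adjusted p up to 0.326.

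SREBF2 encodes SREBP-2, the main activator of the cholesterol genes. It stood at 2353, 2227 and 2379.8 with Dox, 1778, 1823 and 1772 in PS medium and 2309.8, 2334 and 2358 in untreated cells. The arrays within a group were close, and the PS medium arrays lay below all others. The difference was 0.37 (SE 0.051) with Dox against PS medium (limma adjusted p = 0.000514) and -0.38 (SE 0.051) in PS medium against untreated (limma adjusted p = 0.000229). With Dox against untreated cells it was -0.0091 (SE 0.051), with a 95% interval from -0.12 to 0.10. Without Dox replicate 3 the difference against PS medium was 0.35 (limma adjusted p = 0.00216).

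SREBF1, which encodes the SREBP-1 isoforms that act more on fatty acid genes, had 442, 485 and 334 with Dox, 296, 401 and 262 in PS medium and 414, 489.6 and 342 in untreated cells. The groups overlapped, and no comparison was called, at -0.37 (SE 0.18) in PS medium against untreated and 0.39 (SE 0.18) with Dox against PS medium. Without PS medium replicate 2 it was called lower in PS medium against untreated, at -0.54 (limma adjusted p = 0.0435). Over the 19 alternative settings of that comparison it ran from -0.54 to -0.24, with a limma adjusted p up to 0.43. With the replicate block it was called higher with Dox against PS medium (limma adjusted p = 0.00463). SCAP, the escort, had 1097, 1125 and 1144 with Dox, 1004, 1069.8 and 998 in PS medium and 1321, 1422 and 1320.2 in untreated cells. It was -0.40 (SE 0.062) in PS medium and -0.27 (SE 0.062) with Dox against untreated cells, both called, and the second call was lost under median centring.

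STARD4, a soluble carrier that moves cholesterol between membranes, was the member with the second-largest difference with Dox. It stood at 885, 719 and 1157 with Dox, 499, 503 and 456 in PS medium and 1019, 970.2 and 1081 in untreated cells. The PS medium arrays were below all others, and the Dox and untreated arrays overlapped. The difference was 0.87 (SE 0.14) with Dox against PS medium, 1.83-fold higher (limma adjusted p = 0.00137), and -1.05 (SE 0.14) in PS medium against untreated (limma adjusted p = 0.000221). The highest Dox value was on replicate 3, the array with low TCF7L1, and without it the difference against PS medium was 0.70 (limma adjusted p = 0.00116).

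**Figure D3:**
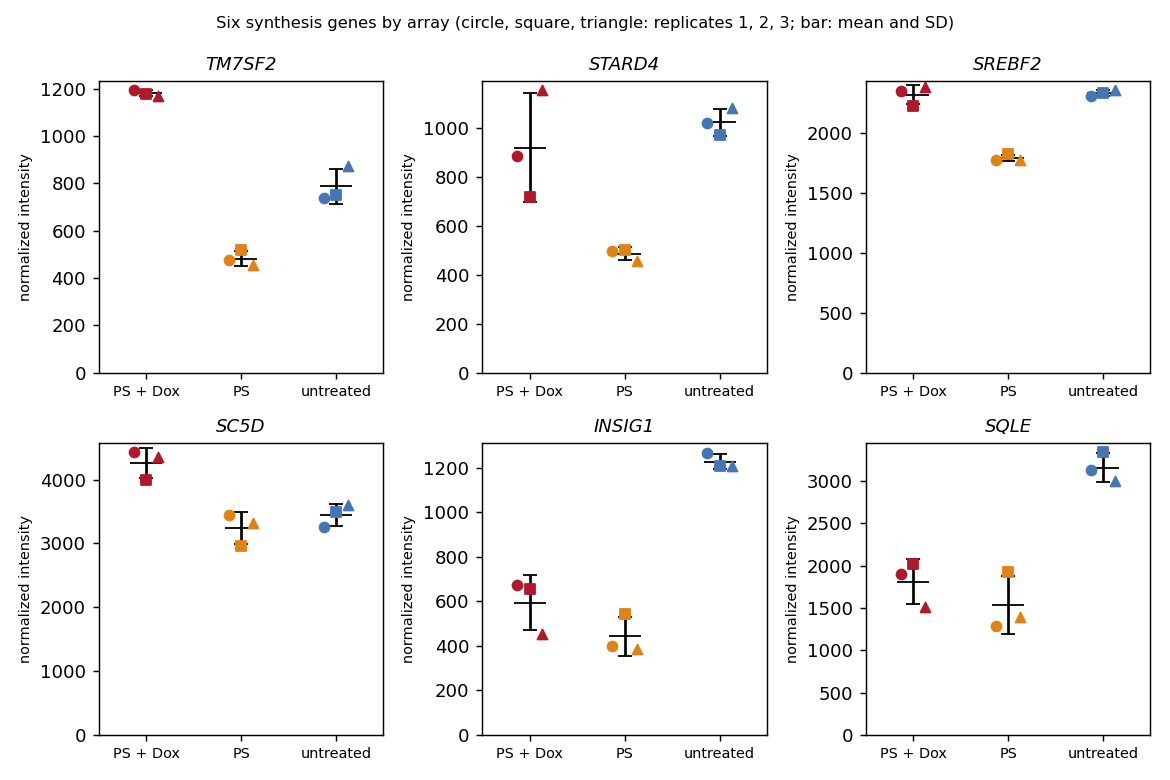
Normalised intensity of TM7SF2, STARD4, SREBF2, SC5D, INSIG1 and SQLE on each array (circle, square and triangle are replicates 1, 2 and 3; bars are mean and SD, n = 3), with PS medium plus Dox, PS medium and untreated from left to right and axes starting at 0. TM7SF2 and SC5D are highest with Dox, SREBF2 and STARD4 are lowest in PS medium, and INSIG1 and SQLE are highest in untreated cells.

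All 4 fatty acid genes were lower in PS medium, where 15.7% of all genes were called lower. None of the 4 was called with Dox against PS medium, where 17.3% of all genes were. ACACA, the acetyl-CoA carboxylase that makes malonyl-CoA, had 1159.8, 966 and 897 with Dox, 957, 977 and 856 in PS medium and 1502, 1380.3 and 1253 in untreated cells. FASN, the fatty acid synthase, had 2200.2, 2172 and 1796 with Dox, 2208, 2856 and 2031 in PS medium and 3265, 3463 and 2788 in untreated cells. FASN was the called gene whose PS medium and untreated arrays overlapped, because PS medium replicate 2 was above untreated replicate 3. Differences in PS medium against untreated were -0.56 (SE 0.10) for ACACA and -0.43 (SE 0.13) for FASN, and with Dox against untreated they were -0.45 (SE 0.10) for ACACA and -0.62 (SE 0.13) for FASN.

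SCD, the desaturase that makes oleate from stearate, had 4589, 4848 and 4237 with Dox, 4600.2, 5119 and 4221 in PS medium and 6521, 6691 and 6155 in untreated cells. The arrays in PS medium with and without Dox overlapped, and all 6 were below the untreated arrays. SCD was -0.48 (SE 0.073) in PS medium and -0.50 (SE 0.073) with Dox, both against untreated cells and both called. With Dox against PS medium it was -0.026 (SE 0.073), with a 95% interval from -0.19 to 0.14. ELOVL6, which lengthens palmitate, had 1844, 1842 and 1605 with Dox, 1465, 1578 and 1216 in PS medium and 1920.4, 2028 and 1749 in untreated cells. Its Dox arrays were all above the PS medium arrays, at 0.32 (SE 0.10), with a limma adjusted p of 0.0558, or 0.00188 with the replicate block.

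The same arrays of a group tended to be high or low from gene to gene. PS medium replicate 2 was the highest array of its group in 24 of 26 genes and replicate 3 the lowest in 21, against 37.5% and 38% of all genes. In the Dox group replicate 2 was highest in 15 genes and replicate 3 lowest in 21, against 40.5% and 34.4% of all genes. In untreated cells replicate 2 was highest in 15 and replicate 3 lowest in 18, against 39.1% and 31.1%. The median SD over the 26 genes was 0.20 on the log2 scale with Dox, 0.24 in PS medium and 0.08 in untreated cells, against 0.11, 0.11 and 0.09 over all genes. SREBF2, STARD4, SC5D and INSIG2 were lowest on Dox replicate 2 and so went against this pattern, and SCAP, SREBF2 and STARD4 were highest on Dox replicate 3. SC5D and INSIG2 also went against it in PS medium. The cause of this pattern was not tested.

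**Figure D4:**
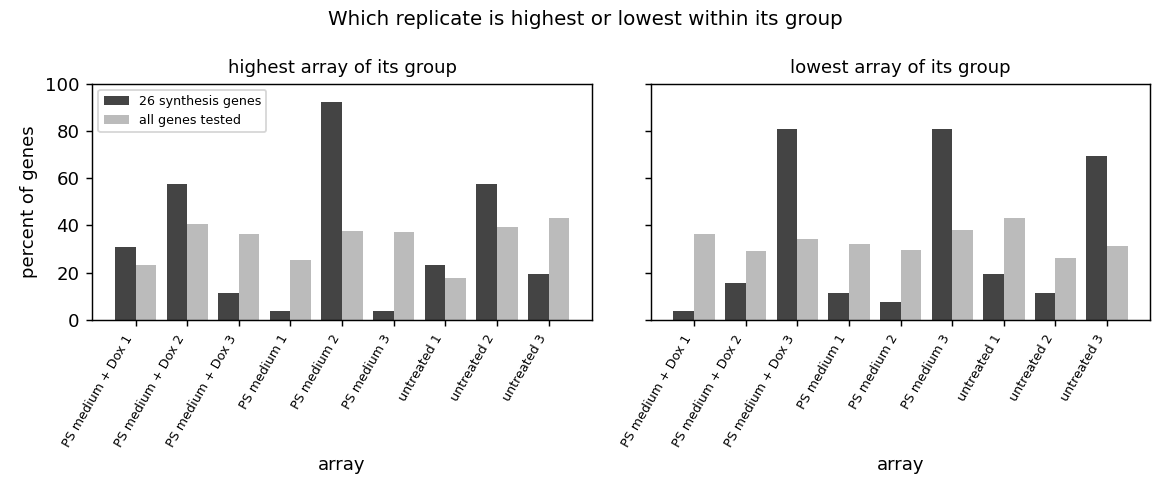
Percent of genes whose highest (left) or lowest (right) value within a group fell on each array, for the 26 synthesis genes (dark bars) and all 18417 genes tested (light bars), with PS medium plus Dox, PS medium and untreated arrays from left to right. PS medium replicate 2 is highest in 92.3% of the 26 genes, and replicate 3 is lowest in 80.8% of them in both the Dox and the PS medium group.

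Other lipid genes gave the setting of the 26, from 5 further lists of 64 measured genes. In PS medium against untreated, where 29.8% of all genes were called, the share called was 28.6% of the other sterol synthesis genes, 20% of the SREBP processing genes, 50% of the uptake and handling genes, 68.2% of the other fatty acid genes and 54.5% of the LXR and efflux genes. With Dox against PS medium, where 17.3% of all genes were called, the shares in these lists were 14.3%, 20%, 21.4%, 50% and 27.3%. Shares close to that of all genes, or below it, show nothing about their lists, and the genes named are then given for their own values. Of 7 other sterol synthesis genes, 0 were higher and 2 lower in PS medium, namely ACAT1, a mitochondrial thiolase, at -0.40 (SE 0.085) and ERG28, a scaffold of the sterol enzymes, at -0.28 (SE 0.061). With Dox against PS medium 1 was higher, ERG28 at 0.21 (SE 0.061), and 0 lower. Of 10 genes of SREBP processing, 2 were higher and 0 lower in PS medium: RNF145, a ubiquitin ligase of this system, at 0.44 (SE 0.072), and MBTPS1, the protease that makes the first cut in SREBPs, at 0.42 (SE 0.062). With Dox against PS medium 1 of them was higher, SPRING1, a cofactor of that protease, at 0.20 (SE 0.061), and 1 lower, RNF145 at -0.33 (SE 0.072).

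Of 14 genes of sterol uptake, storage and handling, 1 was higher and 6 lower in PS medium. SOAT1, which esterifies cholesterol for storage, had 245, 297 and 207 with Dox, 349, 380.1 and 406 in PS medium and 99.2, 108 and 109 in untreated cells, so that the 3 groups did not overlap. It was 1.70 (SE 0.12) in PS medium against untreated (limma adjusted p = 2.1e-06) and -0.58 (SE 0.12) with Dox against PS medium (limma adjusted p = 0.00595). LIPA, the lysosomal lipase that frees cholesterol from its esters, had 278, 303 and 282 with Dox, 516, 487 and 482 in PS medium and 979.9, 1150.1 and 972 in untreated cells. It was lowest with Dox, at -0.75 (SE 0.084) against PS medium (limma adjusted p = 0.00013). With Dox against PS medium 0 of the 14 were higher and 3 lower, GRAMD1A, a sterol carrier between membranes, being the third at -0.34 (SE 0.054).

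Of 22 other fatty acid genes, 4 were higher and 11 lower in PS medium, and 7 were higher and 4 lower with Dox against PS medium. ELOVL2, an elongase of polyunsaturated fatty acids, had 203, 333 and 178 with Dox, 730.3, 931 and 845 in PS medium and 156, 182 and 189 in untreated cells. It was 2.15 (SE 0.19) in PS medium against untreated and -1.79 (SE 0.19) with Dox against PS medium. ELOVL7, another elongase, ran the other way and had 396, 341 and 299.8 with Dox, 174, 138 and 175 in PS medium and 584, 541 and 738 in untreated cells. It was -1.83 (SE 0.14) in PS medium against untreated and 1.02 (SE 0.14) with Dox against PS medium. ACACB, the mitochondrial acetyl-CoA carboxylase, was -0.88 (SE 0.084) in PS medium, and ME1, which supplies NADPH, was 0.80 (SE 0.17) with Dox against PS medium, all of them called. ACLY, which makes cytosolic acetyl-CoA from citrate, was not called in any comparison, at -0.23 (SE 0.082) in PS medium and 0.033 (SE 0.082) with Dox against PS medium.

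Of 11 genes of the sterol-sensing LXR route and of efflux, 2 were higher and 4 lower in PS medium, and 2 were higher and 1 lower with Dox against PS medium. ABCA1, which exports cholesterol from cells, had 359, 314 and 393 with Dox, 251, 253 and 228 in PS medium and 165, 197 and 161 in untreated cells, and the groups did not overlap. It was 0.51 (SE 0.10) with Dox against PS medium and 0.45 (SE 0.10) in PS medium against untreated. MYLIP, a ubiquitin ligase that removes lipoprotein receptors, had 879, 807 and 879.8 with Dox, 362, 403 and 348 in PS medium and 749.9, 772 and 963 in untreated cells, with all PS medium arrays below the others. It was 1.17 (SE 0.10) with Dox against PS medium and -1.12 (SE 0.10) in PS medium against untreated (limma adjusted p = 2.76e-05 and 1.5e-05).

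Against untreated cells, the Dox group had 0 higher and 1 lower of the 7 other sterol genes, 2 higher and 0 lower of the 10 processing genes, 1 higher and 7 lower of the 14 uptake and handling genes, 3 higher and 7 lower of the 22 fatty acid genes and 2 higher and 3 lower of the 11 LXR and efflux genes. These are 14.3%, 20%, 57.1%, 45.5% and 45.5% of the lists, where 30.3% of all genes were called. LIPA had the largest of these differences, -1.79 (SE 0.084), with a limma adjusted p of 1.36e-07. SOAT1 was 1.12 (SE 0.12) and ABCA1 0.96 (SE 0.10). ELOVL1, an elongase of long saturated chains, was 0.95 (SE 0.082), with 1798, 2131 and 1908 with Dox, 1544, 1683 and 1483 in PS medium and 969, 1071 and 946 in untreated cells, so that the 3 groups did not overlap. STARD5, a sterol-binding relative of STARD4, was -0.71 (SE 0.11) and PNPLA3, a lipid droplet hydrolase, -0.80 (SE 0.16). ELOVL7 was -0.81 (SE 0.14), ACAT1 -0.53 (SE 0.085), MBTPS1 0.34 (SE 0.062) and SPRING1 0.27 (SE 0.061). APOC1, an apolipoprotein, was -0.30 (SE 0.10) and LPCAT3, which remodels membrane phospholipids, -0.30 (SE 0.087), and the differences named here against untreated cells were all called.

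**Figure D5:**
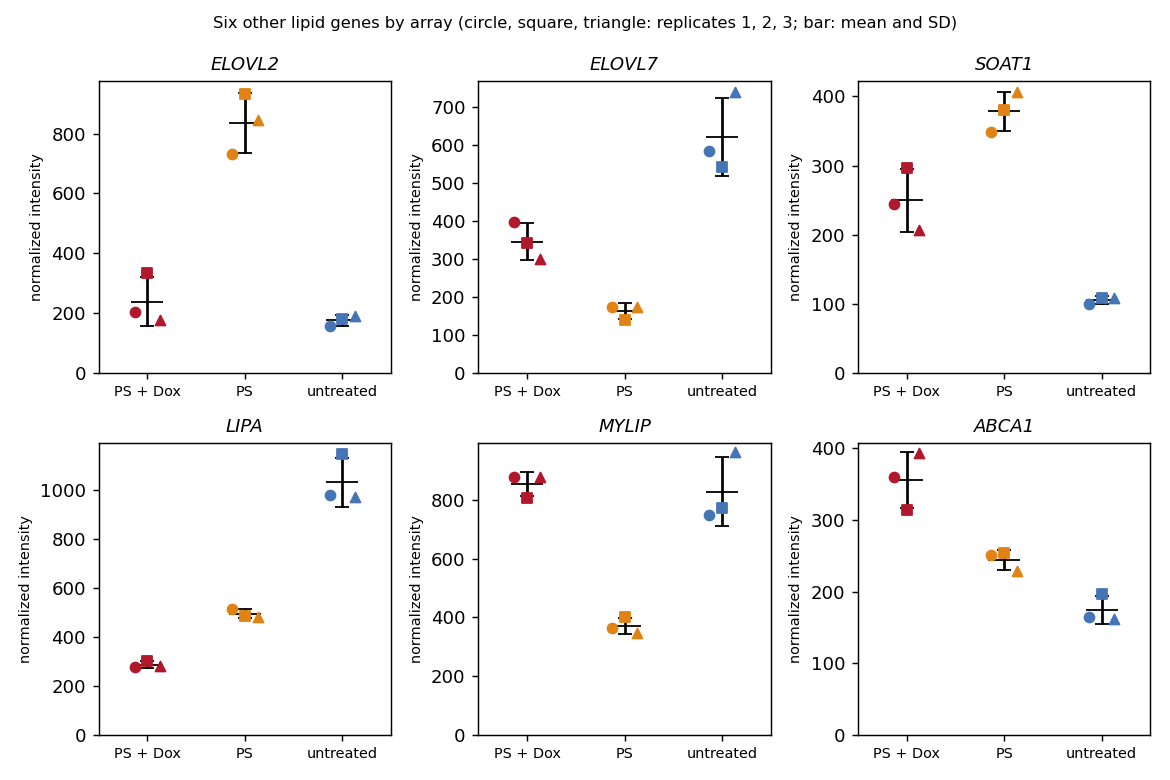
Normalised intensity of 6 lipid genes outside the 26, ELOVL2, ELOVL7, SOAT1, LIPA, MYLIP and ABCA1, on each array (circle, square and triangle are replicates 1, 2 and 3; bars are mean and SD, n = 3), with PS medium plus Dox, PS medium and untreated from left to right and axes starting at 0. ELOVL2 and SOAT1 peak in PS medium, ELOVL7 and MYLIP are lowest there, LIPA is lowest and ABCA1 highest with Dox.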

How the data were processed

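RNA from 9 samples was hybridised to 9 Affymetrix whole-transcript arrays. The authors deposited a linear intensity for each probe set, made with Affymetrix Expression Console 1.1.1 and PLIER 2.0 per the submitters' processing notes, and the sources used here do not give its background correction or between-array normalization. Precision is limited by the 3 arrays per group.

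Values were converted to log2(value + 16), which understates changes of dim genes, and quantile-normalised over 33297 probe sets. The intensities printed are these values turned back to the linear scale. Of the probe sets, 19460 listed 1 symbol, 1754 several and 12083 none, and 19429 of the single-symbol ones were matched to the gene listing of GRCh38.p14 by gene number. Each gene was represented by its brightest single-symbol probe set (18417 genes). A model with a mean for each group was fitted to all 9 arrays with limma 3.58.1 (eBayes with a trend, 6 residual degrees of freedom) under R 4.3.3 and the data.table package (version 1.17.8). Adjustment was by Benjamini-Hochberg over all genes. The procedure was tested on simulated data. Figures and motif searches used Python 3.11.15 and matplotlib 3.10.9.

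The genes and lists were chosen with earlier results of these data known. Genes named were the 28 listed, TCF7L1, 5 further fixed genes, of which ACLY and ABCA1 were measured, and up to 3 genes per other pathway list and comparison with the largest called difference. LBR was named outside this rule, after its values were seen. So were markers of the fibroblast, amnion, adipocyte, hepatocyte and yolk sac, and pluripotency lists. The 5 other pathway lists held 64 measured genes, and the others of their genes are not analysed here.

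Same-numbered arrays were checked for pairing by the correlation over genes of deviations from group means, since the labels do not say what the numbers share. It was 0.245, 0.428 and 0.246 for Dox with PS medium, and 0.246, 0.309 and 0.297 for Dox with untreated, all above 0.1, so blocked values are given there. For PS medium with untreated it was 0.0857, 0.397 and 0.271, not all above 0.1. Alternatives covered the scaling, log offset, dim-gene filter, choice of probe set, arrays in the fit, replicate block, eBayes trend and leaving out each array.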

Additional observations from a re-analysis of the deposited data

How the results depend on the processing

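Over 19 alternative settings per comparison, no direction was reversed in PS medium against untreated. The numbers of called genes among the 26 ran from 14 to 24 there when single arrays were left out, from 4 to 10 with Dox against PS medium and from 10 to 15 with Dox against untreated, against 22, 4 and 11 with all arrays. Over all genes the corresponding ranges were 4165 to 5632, 2404 to 3074 and 4167 to 6028, against 5495, 3195 and 5572. Under median centring the counts among the 26 were 16, 4 and 10, with 4994, 2862 and 5190 over all genes. From the values as deposited they were 20, 4 and 11, with 5432, 3150 and 5494 over all genes. With the replicate block the counts among the 26 were 24, 11 and 17, with 6935, 4481 and 7055 over all genes. In PS medium against untreated the numbers are not shown to pair the arrays, so a call gained there is not read further. Calls lost in at least 1 setting were those of ACAT2, PMVK, MVD, IDI1, FDPS, LSS, NSDHL and FASN in PS medium, and of DHCR7 and SCAP with Dox against untreated. Signs reversed among genes not called. Over the leave-one-out settings with Dox against PS medium, FDPS ran from -0.0080 to 0.234, CYP51A1 from -0.034 to 0.216, NSDHL from -0.014 to 0.246 and SCD from -0.092 to 0.046. The reversals came without PS medium replicate 3 (FDPS, NSDHL and CYP51A1, the last at -0.017), without Dox replicate 2 (CYP51A1) and, for SCD, without PS medium replicate 2 and without Dox replicate 3 (0.026). CYP51A1 was also at -0.033 over all single-symbol probe sets. With Dox against untreated, MVK ran from -0.327 to 0.016, positive without Dox replicate 3, and SREBF1 from -0.11 to 0.166, negative without untreated replicate 3 and without Dox replicates 1 (-0.028) and 2 (-0.092). SREBF2 ran from -0.028 to 0.020, positive without Dox replicate 2, and was at 0.0060 under median centring. The cause of these changes was not tested, and the settings that leave out an array also have fewer arrays. Arrays set no depth limit, and signal over background is not given in the deposited values.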
